A study of Mus musculus with 12 samples.

Results

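The serpins of the mouse were followed through a differentiation of embryonic stem cells, from undifferentiated cells (mESC) to day 9 and day 14. A gene was counted as a serpin if its symbol, reached through the accession of its probe, began with Serpin and a clade letter from a to i with a number, or was Serping1. This gave 55 genes on 69 probes, of 31758 genes or accessions on the array: 19 in clade A, 25 in clade B and 11 in clades C to I. The mouse annotation used here names 69 serpin genes. The other 14, among them Serpina1a, Serpina1b, Serpina1e and Serpina3g, had no probe named here and were not analysed.

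Most serpins are suicide inhibitors of serine proteases: the protease cuts an exposed reactive centre loop, the inhibitor refolds, and both stay locked together. Clade A serpins are mostly secreted into plasma by the liver, whereas clade B serpins lack a classical signal peptide and guard the inside of the cell against proteases such as granzymes and cathepsins. Clades C to I hold single-purpose regulators of clotting, plasminogen activation and complement, and also Serpinh1, which inhibits no protease and chaperones procollagen.

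Total RNA was copied into Cy3-labelled RNA and read on 12 Agilent arrays of 1 colour, 4 for each of the 3 groups. The groups were mESC, cells at day 9 and cells at day 14 of what the design text calls cardiomyocyte differentiation, and the labels call the cell type of all 12 samples embryonic stem cells. The labels give 1 growth text for every sample: seeding on dishes coated with crosslinked elastin-like polypeptide, 2 days in medium free of LIF (the cytokine that keeps mouse stem cells undifferentiated), then 12 days in GMEM with 2.5% serum replacement, nonessential amino acids and beta-mercaptoethanol. The sources used here do not give the time at which mESC were harvested, nor whether replicates came from separate cultures, so the p-values reflect the spread among these samples alone, which may be technical. Slide and scan cannot be told apart from group, because each group had its own.

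Array brightness differed between groups: the 75th percentile of signal ran between 346.8 and 386.4 in mESC, between 394.9 and 438.5 at day 9, and between 462.7 and 508.0 at day 14. The share of probes well above background ran between 59.5% and 67.9%. The labelled identities were set against marker lists, whose summed level adds the members' signals as multiples of the array's 75th percentile. The 6 pluripotency markers summed to 217 to 231 in mESC, 2.66 to 3.90 at day 9 and 1.38 to 1.72 at day 14. None was below background throughout a group. The 6 cardiomyocyte markers summed to 3.47 to 3.96, 156 to 288 and 150 to 193 in the same order, with Nppa below background in mESC. Markers of hepatocytes, fibroblasts and macrophages also changed, and their values are given beside serpins that changed. In such bulk RNA, fewer cells of a type and less RNA per cell cannot be told apart.

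A level below is the log2 signal of the gene's probe minus the 75th percentile of its array, so levels compare arrays for 1 gene and not genes with each other. Genes entered the test if 3 or more arrays of any 1 group were well above background. They were called higher or lower when the adjusted p lay under 0.05 and the log2 fold change was 1 or more in size (limma over all 20875 genes tested, two-sided, Benjamini-Hochberg adjustment, n = 4 arrays in each group). Where a gene was below background on every array of 1 group, the change is given as a bound: the mean of the brighter group against the lowest signal that counted as above background on each dim array, or the gene's own signal where that was higher.

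Of the 55 serpins, 36 were tested: 12 of clade A, 14 of clade B and 10 of clades C to I. The 19 not tested were Serpina1f, Serpina3a, Serpina3b, Serpina3f, Serpina3k, Serpina5, Serpina12, Serpinb2, Serpinb3a, Serpinb3b, Serpinb3d, Serpinb7, Serpinb9b, Serpinb9c, Serpinb9d, Serpinb11, Serpinb12, Serpinb13 and Serpini2, and 13 of them were below background on all 12 arrays. Above background on all 4 arrays of a group were 16 of the 55 genes in mESC, 24 at day 9 and 33 at day 14. Only 16 genes passed the filter in all 3 groups, 9 passed in 2 groups, 9 through day 14 alone, Serpina3c through mESC alone and Serpina4-ps1 through day 9 alone. The filter favours genes that are bright in at least 1 group, and so genes that differ between groups. Serpina7, Serpina10, Serpina11, Serpinb5, Serpinb8, Serpinb9f and Serpinb10 passed through day 14 alone and were called higher there than in mESC and at day 9. Serpina3c, which passed through mESC alone, was called lower at both days than in mESC. Serpina3j, Serpina9 and Serpina4-ps1 also passed in 1 group alone but were called in 0 comparisons. The counts below therefore describe the tested genes and not the family.

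At day 9 against mESC, 15 of the 36 tested serpins were called higher and 6 lower, where 41% of all genes tested were called (20.1% higher, 21% lower). At day 14 against mESC, 25 were called higher and 6 lower, where 46.8% of all genes were called (22.8% higher, 24% lower). Between the days, 21 were called higher at day 14 than at day 9 and 0 lower, where 13.8% of all genes were called (10.2% higher, 3.6% lower). At an unadjusted p under 0.05 by limma, with no fold threshold, 29 of the 36 were higher and 0 lower at day 14 than at day 9. The share of all genes at that looser cut was not counted, so the 29 cannot be set against it. The arrays of the 2 groups did not overlap for 27, 32 and 29 of the 36 genes in these comparisons, which is 75%, 88.9% and 80.6%, against 78.6%, 83.9% and 57.4% of all genes.

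The clades differed in their counts, and no test was made between them. In clade A, 6 of 12 tested genes rose and 2 fell at day 9 against mESC, and 7 rose and 2 fell at day 14 against mESC. In clade B the counts were 4 higher and 4 lower of 14 at day 9, and 9 higher and 4 lower at day 14. In clades C to I, 5 of 10 rose at day 9 and 9 at day 14, and 0 were called lower in either comparison, with 1 (Serpini1) and 0 lower at an unadjusted p under 0.05 by limma. From day 9 to day 14, 7, 10 and 4 genes rose in the 3 sets.

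Median log2 differences of clade A, clade B and clades C to I were 0.69, -0.02 and 1.43 at day 9 against mESC, 3.14, 1.47 and 2.69 at day 14 against mESC, and 2.09, 1.5 and 0.89 at day 14 against day 9. The medians over all genes tested were -0.16, -0.19 and -0.09. These medians include genes below background in 1 group, whose fitted change is not a measured size, and some turn with the choice of genes or background. The clade A median log2 difference, day 9 against mESC, was -0.0865 under normexp background correction and -0.26 with no filter. The clade B median log2 difference, day 14 against mESC, was -1.10 over its 6 genes above background on all 12 arrays. Among the 15 serpins above background on all 12 arrays, 5 rose and 4 fell at day 9 against mESC, 9 rose and 4 fell at day 14 against mESC, and 7 rose and 0 fell at day 14 against day 9. Of the 15894 genes above background on all arrays, 34.5%, 40.4% and 8.2% were called in these comparisons, and 14.8%, 16.1% and 5.62% were called higher.

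**Figure D1:**
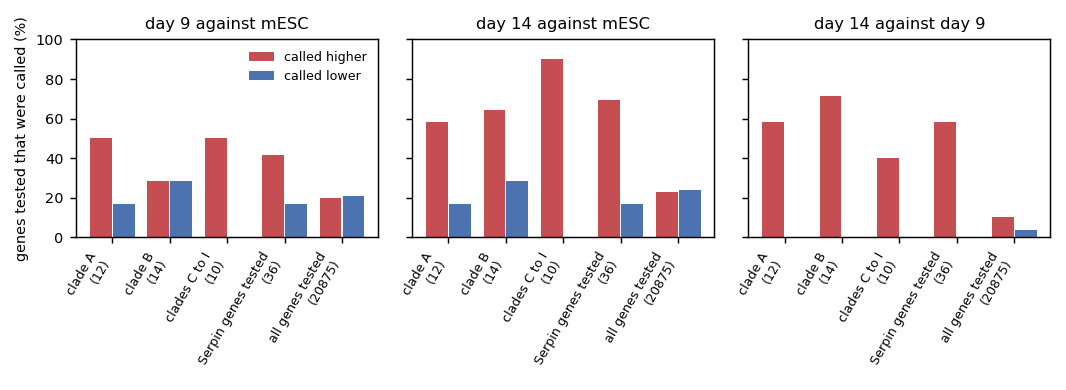
Share of tested genes called higher (red) or lower (blue) in percent, for each clade set, the 36 tested serpins and all 20875 genes tested (number tested in brackets), in the 3 comparisons. The bars of clades C to I hold no lower call, and at day 14 against day 9 the serpins show 58.3% higher and 0% lower calls, beside 10.2% and 3.6% of all genes.

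**Figure D2:**
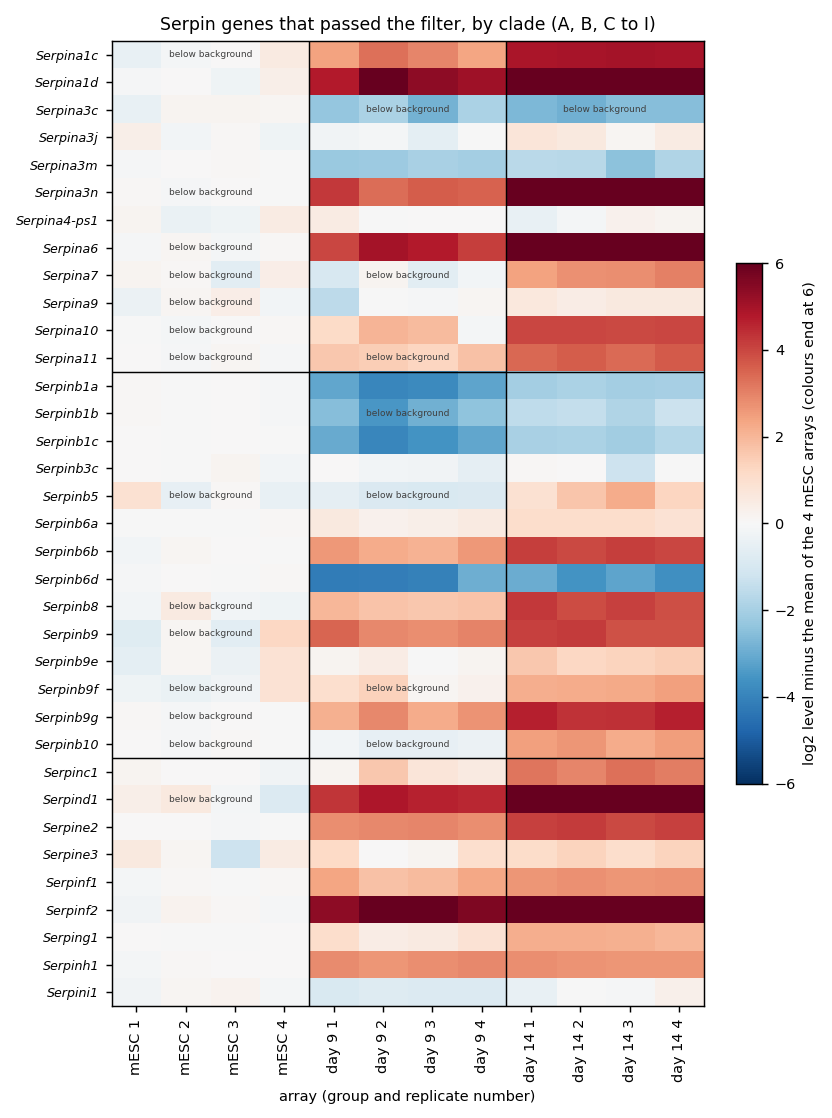
Level of the tested serpins reported here on each of the 12 arrays (columns, by group and replicate number) as the log2 difference from the mean of the 4 mESC arrays, with colours ending at 6 in either direction. Rows are ordered by clade with lines between A, B and C to I, and a note marks groups in which the gene was below background on all 4 arrays.

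The promoters of 4 clade A genes and of the Serpinb9 paralogues are shown because they come from near-identical genes whose RNA levels went together in 1 set and apart in another. The sequences are those of RefSeq, build GRCm38.p6, 5′ to 3′ on the strand of the gene, and the stretch printed lies before the annotated start. Of the 55 serpins, 45 had promoter windows of 250 bases in that table. Serpina1c and Serpina1d, copies of the antitrypsin gene, were identical at 220 of 239 aligned bases (92.1%), and the capitals mark GTTAAT, part of the site bound by HNF1, a factor of liver, kidney and gut. Serpina1c lies at chr12:103904951-103905200 and Serpina1d at chr12:103773634-103773883, both on the minus strand.
Serpina1c: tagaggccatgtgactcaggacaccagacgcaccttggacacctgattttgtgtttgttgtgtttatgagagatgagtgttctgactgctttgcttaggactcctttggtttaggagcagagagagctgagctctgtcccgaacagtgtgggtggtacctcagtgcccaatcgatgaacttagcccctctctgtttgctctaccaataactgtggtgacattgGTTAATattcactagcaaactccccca
Serpina1d: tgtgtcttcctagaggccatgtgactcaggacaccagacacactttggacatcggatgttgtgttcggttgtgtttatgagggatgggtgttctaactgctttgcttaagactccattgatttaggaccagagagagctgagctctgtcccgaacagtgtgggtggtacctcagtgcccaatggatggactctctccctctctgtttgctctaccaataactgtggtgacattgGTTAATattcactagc

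Serpina3c and Serpina3n, from the antichymotrypsin cluster, were identical at 229 of 247 aligned bases of their full 250-base windows (92.7%). The capitals mark the bases at which each differs from the other. The stretches lie at chr12:104153930-104154122 (minus strand, 193 bases) and chr12:104406458-104406645 (plus strand, 188 bases) and leave out bases that another annotated transcript covers.
Serpina3c: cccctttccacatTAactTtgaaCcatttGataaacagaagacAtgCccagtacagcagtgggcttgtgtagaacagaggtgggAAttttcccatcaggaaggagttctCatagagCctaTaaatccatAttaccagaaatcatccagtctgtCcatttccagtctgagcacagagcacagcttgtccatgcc
Serpina3n: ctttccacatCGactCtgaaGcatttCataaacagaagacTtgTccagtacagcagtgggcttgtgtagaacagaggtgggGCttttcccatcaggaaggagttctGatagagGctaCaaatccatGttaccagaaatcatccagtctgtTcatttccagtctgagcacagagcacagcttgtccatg

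The promoters of Serpinb9e and Serpinb9f, mouse paralogues of the granzyme B inhibitor Serpinb9, were identical at 233 of 235 aligned bases (99.1%). That of Serpinb9g matched Serpinb9e at 95.9% and Serpinb9f at 95.4% of aligned bases. Capitals mark the bases of Serpinb9e and Serpinb9f that differ from Serpinb9g, and those of Serpinb9g that differ from either. They lie on the plus strand at chr13:33249358-33249607, chr13:33323827-33324076 and chr13:33484540-33484789.
Serpinb9e: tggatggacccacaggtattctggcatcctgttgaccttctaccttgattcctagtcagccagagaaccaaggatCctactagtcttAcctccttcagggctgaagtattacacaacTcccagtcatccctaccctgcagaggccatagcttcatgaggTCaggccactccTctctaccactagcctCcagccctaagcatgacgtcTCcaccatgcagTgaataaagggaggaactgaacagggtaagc
Serpinb9f: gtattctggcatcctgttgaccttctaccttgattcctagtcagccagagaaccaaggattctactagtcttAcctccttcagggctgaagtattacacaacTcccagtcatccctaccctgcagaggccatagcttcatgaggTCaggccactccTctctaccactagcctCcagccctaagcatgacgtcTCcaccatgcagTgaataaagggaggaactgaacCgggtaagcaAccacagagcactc
Serpinb9g: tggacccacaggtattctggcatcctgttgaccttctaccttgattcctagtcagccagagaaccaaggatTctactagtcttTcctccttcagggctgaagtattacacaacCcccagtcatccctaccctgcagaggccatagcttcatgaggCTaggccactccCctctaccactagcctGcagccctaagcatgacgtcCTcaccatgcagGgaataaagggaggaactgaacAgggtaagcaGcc

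GTTAAT, searched on both strands, stood in the promoter windows of 4 of 13 clade A genes (Serpina1c, Serpina1d, Serpina3c and Serpina7), 3 of 23 clade B genes and 1 of 9 genes of clades C to I, and in 6.43% of all 32851 promoter windows. It lay 27 bases before the start of Serpina1c and 16 before that of Serpina1d. In Serpina3c it lay 239 bases before the start that ends the full window, which is not the end of the printed stretch. These letters are not in the window of Serpina3n. TATAAA stood in 5, 8 and 1 genes of the 3 sets and in 12.4% of all windows, and GGGCGG in 1, 3 and 2 genes and in 32.7% of all windows. The window of Serpine2 held 6 copies of GGGCGG and 34 CpG, where the median over all windows was 6 CpG. A match is a description of the letters and not a binding site.

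In clade A, Serpina1c, Serpina1d, Serpina3n and Serpina6 were called higher in all 3 comparisons, and Serpina3c and Serpina3m were called lower against mESC. Serpina6, which encodes the corticosteroid carrier of blood and inhibits no protease, read -7.34, -7.14, -7.36 and -7.20 on the mESC arrays, -3.26, -2.29, -2.52 and -3.10 at day 9, and 1.82, 1.82, 1.98 and 1.98 at day 14. The 3 groups did not overlap, and the mESC arrays were not well above background. Serpina6 was at least 5.93-fold higher at day 9 than in mESC (adjusted p = 6.22e-10) and at least 154-fold higher at day 14 than in mESC (adjusted p = 1.49e-12). Between the days it rose by 4.70 ± 0.18 on the log2 scale (SE, adjusted p = 3.53e-09).

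Serpina1d, 1 of the mouse copies of the antitrypsin gene, was above background on all 12 arrays. It read -3.79, -3.71, -3.99 and -3.38 in mESC, 1.06, 2.27, 1.66 and 1.39 at day 9, and 3.86, 3.83, 4.03 and 4.02 at day 14. Each stage lay above the one before it with no overlap. The log2 fold change was 5.31 ± 0.22 at day 9 against mESC (adjusted p = 6.75e-10), 7.65 ± 0.22 at day 14 against mESC (adjusted p = 2.44e-11) and 2.34 ± 0.22 at day 14 against day 9 (adjusted p = 3.85e-06). Its copy Serpina1c read -6.22, -5.92, -5.77 and -5.26 in mESC, -3.36, -2.47, -2.86 and -3.41 at day 9, and -0.89, -0.84, -0.79 and -0.85 at day 14. It followed the same order with no overlap and was below background in mESC. Serpina1c was at least 4.94-fold higher at day 9 (adjusted p = 3.12e-07) and at least 22.4-fold higher at day 14 (adjusted p = 1.34e-09) than in mESC, and rose by 2.18 ± 0.23 on the log2 scale between the days (adjusted p = 8.30e-06). Whether probes of near-identical copies bind each other's RNA was not tested, here or for the other paralogues.

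Serpina3n, an acute-phase relative of antichymotrypsin that inhibits granzyme B in mice, read -7.30, -7.43, -7.32 and -7.38 in mESC, -3.10, -3.99, -3.74 and -3.82 at day 9, and 0.04, 0.17, 0.06 and 0.07 at day 14. The groups did not overlap. Serpina3n was at least 3.25-fold higher at day 9 (adjusted p = 6.31e-10) and at least 43.6-fold higher at day 14 (adjusted p = 1.75e-12) than in mESC, where it was below background, and rose by 3.75 ± 0.15 on the log2 scale between the days (adjusted p = 4.90e-09). Serpina3c, whose full promoter window is 92.7% identical to that of Serpina3n over the aligned bases, went the other way. It read -5.29, -4.70, -4.71 and -4.74 in mESC, -7.16, -6.74, -7.69 and -6.76 at day 9, and -7.55, -7.74, -7.41 and -7.40 at day 14, above background on 3 of 4 mESC arrays and on 0 of the others. Serpina3c was at least 1.85-fold lower at day 9 (adjusted p = 1.10e-06) and at least 2.25-fold lower at day 14 (adjusted p = 1.88e-07) than in mESC. Of their neighbours in the cluster, Serpina3m also fell, with log2 fold changes of -2.11 ± 0.16 at day 9 and -1.89 ± 0.16 at day 14 (adjusted p = 1.35e-07 and 3.18e-07), and Serpina3j changed by -0.23 ± 0.17 and 0.48 ± 0.17 (adjusted p = 0.241 and 0.0232), under the threshold for a call.

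The other hormone carrier of the clade, Serpina7, binds thyroxine and lies on the X chromosome. It read -5.86, -5.93, -6.66 and -5.62 in mESC, -6.97, -5.84, -6.65 and -6.17 at day 9, and -3.62, -3.29, -3.22 and -3.0 at day 14. Only the day 14 arrays were above background and they lay apart from all others. Serpina7 was at least 4.22-fold higher at day 14 than in mESC (adjusted p = 1.57e-06) and at least 5.51-fold higher at day 14 than at day 9 (adjusted p = 2.01e-06).

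Serpina10, the protein Z-dependent inhibitor of activated clotting factor X, read -7.41, -7.51, -7.36 and -7.33 in mESC, -6.27, -5.37, -5.50 and -7.50 at day 9, and -3.42, -3.40, -3.45 and -3.39 at day 14. The day 14 arrays lay above all others, and 1 day 9 array lay among the mESC arrays. Serpina10 was above background on 0 mESC arrays, 2 day 9 arrays and 4 day 14 arrays. It was at least 3.85-fold higher at day 14 than in mESC (adjusted p = 8.40e-07) and rose by 2.74 ± 0.37 on the log2 scale between the days (adjusted p = 6.17e-05). Over 22 alternatives the change between the days ran from 0.91 to 3.01. At day 9 against mESC the call (adjusted p = 0.0084) was lost without day 9 replicate 2, and no fold is given because the bound is under 1. Serpina11 read -7.60, -7.73, -7.54 and -7.69 in mESC, -6.02, -6.16, -6.37 and -5.87 at day 9, and -4.22, -4.0, -4.25 and -3.95 at day 14. It was above background at day 14 alone, at least 2.40-fold higher than in mESC (adjusted p = 3.65e-11) and at least 3.13-fold higher than at day 9 (adjusted p = 4.34e-08). The remaining tested clade A genes, Serpina3j, Serpina4-ps1 and Serpina9, were called in 0 of the 3 comparisons, with fitted log2 changes of -0.38 to 0.93.

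With these changes moved the 12 hepatocyte markers, of which 9 rose and 1 fell at day 9 and 11 rose and 0 fell at day 14 against mESC. Their summed level was 1.82 to 2.02 in mESC, 40.6 to 68.6 at day 9 and 256 to 279 at day 14. Afp, Ttr, Apoa1, Fga and Fgb were below background in mESC, and of these only Fga was so at day 9. Among the hepatocyte markers, Ahsg fell at day 9 (log2 fold change -4.60 ± 0.10), and Hnf4a was called in 0 of the 3 comparisons (0.42, 0.33 and -0.09). Of the 6 visceral endoderm markers, 3 rose and 1 fell at day 9 and 3 rose and 2 fell at day 14 against mESC. The visceral endoderm sum, given below, was highest in mESC, but its members went both ways. Foxa2, Sox17 and Cubn, the last below background in mESC, rose at both days. Rhox5 fell at both days and Amn at day 14. The part of either cell type in the clade A changes was not tested. Agt, which encodes angiotensinogen and shares the serpin fold without the name, was below background in mESC, at least 54.9-fold higher at day 14 (adjusted p = 2.88e-09), and rose by 6.58 ± 0.32 on the log2 scale between the days (adjusted p = 2.35e-08), with no call at day 9 against mESC (adjusted p = 0.892).

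**Figure D3:**
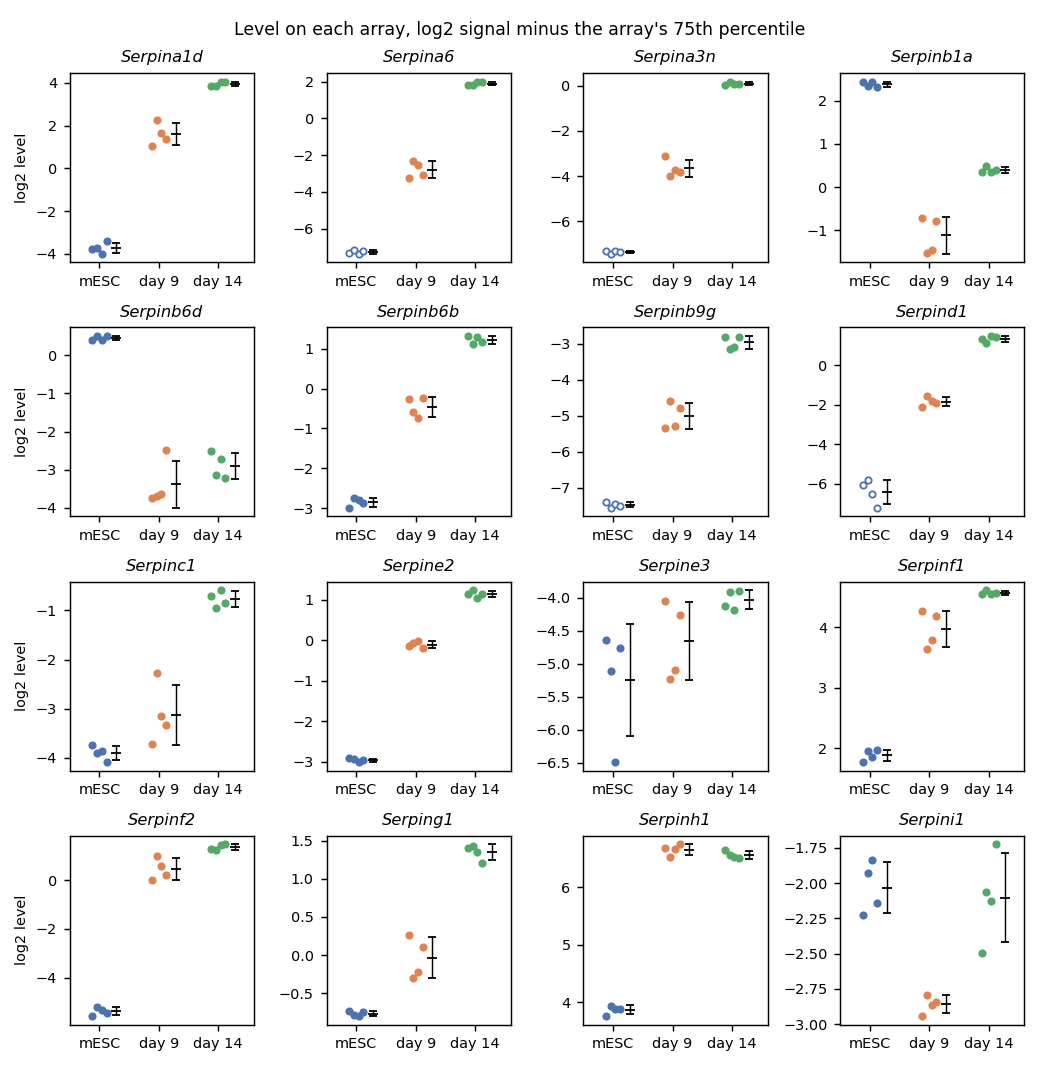
Level of 16 serpins on each array (log2 signal minus the array's 75th percentile), mESC, day 9 and day 14 from left to right, with the mean and SD of each group of 4 at the right of the points. Open points mark groups in which the gene was below background on all 4 arrays. Serpinb1a and Serpinb6d are highest in mESC, Serpinh1 is level between the days, and Serpini1 has its lowest arrays at day 9.

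Clade B, the intracellular serpins, split into genes that fell and genes that rose. Serpinb1a, the inhibitor of neutrophil elastase and cathepsin G, read 2.43, 2.34, 2.42 and 2.33 in mESC, -0.72, -1.52, -1.45 and -0.78 at day 9, and 0.34, 0.50, 0.34 and 0.40 at day 14. The mESC arrays were highest, the day 9 arrays lowest, and no groups overlapped. The log2 fold change was -3.5 ± 0.16 at day 9 and -1.99 ± 0.16 at day 14 (adjusted p = 2.10e-09 and 3.06e-07 against mESC), and was higher at day 14 than at day 9 by 1.51 ± 0.16 (adjusted p = 1.19e-05).

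Serpinb1c, a copy of the same gene, read -1.19, -1.22, -1.17 and -1.23 in mESC, -4.24, -5.10, -4.80 and -4.30 at day 9, and -3.15, -3.12, -3.30 and -2.93 at day 14. It had the same order of groups with no overlap. The log2 fold changes were -3.41 ± 0.17 at day 9 and -1.92 ± 0.17 at day 14 against mESC (adjusted p = 3.02e-09 and 4.77e-07), and 1.49 ± 0.17 between the days (adjusted p = 1.53e-05). A second probe of Serpinb1c did not pass the filter and was below background on all arrays of both days, so it cannot show a change between them. Serpinb1b, the remaining copy, was outside the rule for naming genes and is given after its values were seen. It read -2.92, -3.02, -2.95 and -3.06 in mESC, -5.56, -6.47, -5.85 and -5.41 at day 9, where it was below background, and -4.51, -4.41, -4.80 and -4.30 at day 14. It was at least 6.35-fold lower at day 9 than in mESC (adjusted p = 6.88e-08), fell by 1.52 ± 0.20 on the log2 scale at day 14 against mESC (adjusted p = 1.73e-05), and was at least 2.22-fold higher at day 14 than at day 9 (adjusted p = 0.000135). A second, untested probe of Serpinb1b was below background on all 12 arrays, mESC included, so these changes rest on 1 probe.

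Serpinb6d read 0.39, 0.49, 0.40 and 0.49 in mESC, -3.74, -3.70, -3.64 and -2.47 at day 9, and -2.52, -3.13, -2.73 and -3.22 at day 14. The mESC arrays stood above all others, and the days overlapped. Its log2 fold change against mESC was -3.83 ± 0.26 at day 9 and -3.34 ± 0.26 at day 14 (adjusted p = 6.36e-08 and 1.90e-07). The 6 pluripotency markers, whose summed levels are given above, fell in both comparisons with mESC, and their part in the fall of these genes was not tested.

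The relatives of Serpinb6d in the same cluster rose. Serpinb6b read -2.99, -2.73, -2.80 and -2.86 in mESC, -0.25, -0.60, -0.74 and -0.24 at day 9, and 1.30, 1.10, 1.30 and 1.16 at day 14. No groups overlapped. The log2 fold changes were 2.39 ± 0.11 at day 9 and 4.06 ± 0.11 at day 14 against mESC (adjusted p = 2.06e-09 and 1.77e-11), and 1.67 ± 0.11 between the days (adjusted p = 2.64e-07). Serpinb6a, which inhibits cathepsin G, changed by 0.41 ± 0.07 at day 9 and rose by 1.01 ± 0.07 at day 14 against mESC (adjusted p = 0.000283 and 1.07e-07), the last so near the threshold that the call was lost in 6 of 23 alternatives, with values of 0.69 to 1.26.

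Serpinb9, which protects lymphocytes and dendritic cells from their own granzyme B, read -7.22, -6.35, -7.11 and -5.24 in mESC, -3.0, -3.58, -3.69 and -3.52 at day 9, and -2.40, -2.29, -2.68 and -2.64 at day 14. All 8 arrays of the 2 days lay above mESC, where it was below background. Serpinb9 was at least 3.67-fold higher at day 9 (adjusted p = 1.09e-05) and at least 7.06-fold higher at day 14 (adjusted p = 8.49e-07) than in mESC, and differed by 0.95 ± 0.37 between the days (adjusted p = 0.0427), under the threshold for a call. Its paralogue Serpinb9g read -7.40, -7.56, -7.44 and -7.51 in mESC, -5.34, -4.60, -5.28 and -4.79 at day 9, and -2.81, -3.15, -3.08 and -2.79 at day 14. The groups did not overlap. It was at least 1.29-fold higher at day 9 (adjusted p = 3.00e-08) and at least 5.29-fold higher at day 14 (adjusted p = 1.18e-10) than in mESC, and rose by 2.04 ± 0.16 on the log2 scale between the days (adjusted p = 7.61e-07).

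The paralogues printed with Serpinb9g, both outside the naming rule and chosen after their values were seen, were called at day 14 and not at day 9. Serpinb9e read -5.06, -4.37, -4.85 and -3.64 in mESC, -4.34, -4.02, -4.49 and -4.33 at day 9, and -2.87, -3.23, -3.13 and -3.02 at day 14, with only the day 14 arrays apart. Its log2 fold change was 0.19 ± 0.26 at day 9 and 1.42 ± 0.26 at day 14 against mESC (adjusted p = 0.508 and 0.000282). Serpinb9f was above background at day 14 alone, at least 1.23-fold higher than in mESC and at least 1.61-fold higher than at day 9 (adjusted p = 2.86e-05 and 0.00102). Whether the day 9 response of Serpinb9g differed from that of Serpinb9e was not tested. Of 5 tested trophoblast markers, 2 rose and 1 fell at day 14 against mESC, and their summed level was 0.276 to 0.293 in mESC, 0.218 to 0.353 at day 9 and 1.77 to 2.53 at day 14. Tpbpa, Elf5 and Psg17 were below background in mESC, Prl2c2, Prl3d1 and Gcm1 were not tested, and the part of such cells in the Serpinb9 changes was not tested.

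Serpinb8, an inhibitor of the proprotein convertase furin, read -7.47, -6.78, -7.46 and -7.57 in mESC, -5.34, -5.59, -5.71 and -5.62 at day 9, and -3.06, -3.41, -3.24 and -3.46 at day 14. No groups overlapped. Serpinb8 was above background on 0 mESC arrays, 2 day 9 arrays and 4 day 14 arrays. It was at least 4.20-fold higher at day 14 than in mESC (adjusted p = 5.03e-10) and rose by 2.27 ± 0.16 on the log2 scale between the days (adjusted p = 5.00e-07), and its call at day 9 against mESC (adjusted p = 1.10e-06) carries no fold. Over 22 alternatives the change between the days ran from 0.95 to 2.35. A second, untested probe of Serpinb8 was below background on all 12 arrays. Serpinb10, a serpin of haematopoietic cells, read -7.51, -7.64, -7.47 and -7.55 in mESC, -7.71, -8.04, -8.04 and -7.91 at day 9, and -5.10, -4.91, -5.32 and -5.03 at day 14. Only the day 14 arrays were above background, at least 1.21-fold higher than in mESC (adjusted p = 3.33e-10) and at least 1.58-fold higher than at day 9 (adjusted p = 1.22e-09). A second, untested probe of Serpinb10 was also below background on all 12 arrays.

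Most of the 10 macrophage markers rose at day 14, when clade B genes were also called higher. Of the clade B genes, Serpinb6b, Serpinb8, Serpinb9 and Serpinb9g had been called higher at day 9 already. Of the macrophage markers, 2 rose and 1 fell at day 9 and 9 rose and 0 fell at day 14 against mESC. All 10 markers rose at day 14 against day 9. Their summed level was 1.54 to 1.80 in mESC, 0.443 to 0.568 at day 9 and 19.4 to 24.0 at day 14. Adgre1, C1qa, C1qc and Lyz2 were below background in both mESC and day 9, and Csf1r and Tyrobp in mESC. The part of such cells in these changes was not tested. Of the other tested clade B genes, Serpinb5, an epithelial serpin that inhibits no protease, was above background only at day 14, at least 1.03-fold higher than in mESC and at least 1.34-fold higher than at day 9 (adjusted p = 0.0011 and 9.46e-05), and Serpinb3c was called in 0 comparisons, with log2 changes of -0.29 to -0.06.

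Clade A genes on chromosome 12 and clade B genes on chromosome 13 lie in clusters, and both clusters held genes that rose and genes that fell. Along chromosome 12, the order of the genes on the array began with Serpina10, Serpina6, Serpina1f, Serpina1d, Serpina1c and Serpina11 and ended with the antichymotrypsin genes from Serpina3a to Serpina3n. Of the first stretch, 5 genes rose at day 14 against mESC and Serpina1f was not tested, whereas in the last stretch Serpina3c and Serpina3m fell and Serpina3n rose. Along chromosome 13, Serpinb1a and Serpinb1c came first and fell, Serpinb6b and Serpinb9 followed and rose, and Serpinb6d, which fell, stood between Serpinb9g and Serpinb6a. At day 14 against mESC, 6 of 10 tested clade B genes on chromosome 13 rose and 4 fell, and of 4 tested on chromosome 1, 3 rose and 0 fell, with 8 of the 12 chromosome 1 genes not tested.

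**Figure D4:**
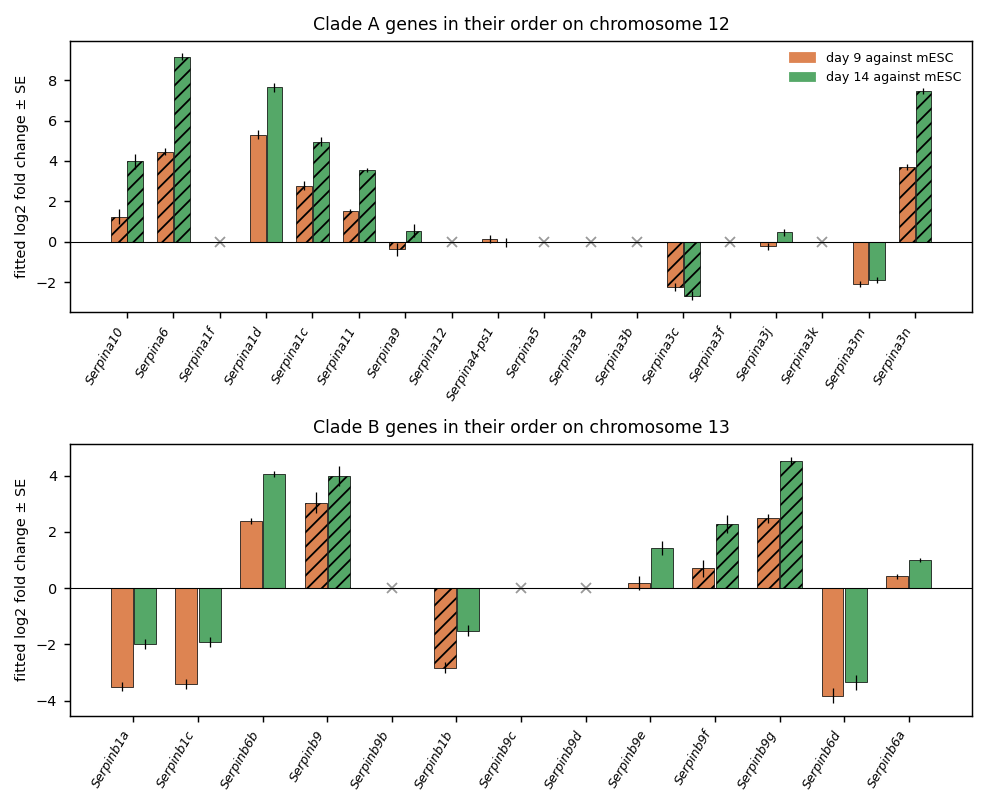
Fitted log2 fold change ± SE against mESC at day 9 (orange) and day 14 (green) for clade A genes on chromosome 12 and clade B genes on chromosome 13, in their order along the chromosome with no scale of distance. Hatched bars rest on a group that was below background throughout, so their size is not measured, and crosses mark genes not tested. Rising genes and falling genes are found in both clusters.

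Clades C to I hold the inhibitors of clotting, fibrinolysis and complement. Serpinc1, which encodes antithrombin, read -3.74, -3.89, -3.86 and -4.08 in mESC, -3.71, -2.27, -3.16 and -3.34 at day 9, and -0.70, -0.95, -0.59 and -0.84 at day 14. The day 14 arrays lay far above the others, and the lowest day 9 array stood just above the highest mESC array. The log2 fold change was 0.78 ± 0.24 at day 9 against mESC (adjusted p = 0.0113), under the threshold, 3.13 ± 0.24 at day 14 against mESC (adjusted p = 1.73e-07) and 2.35 ± 0.24 between the days (adjusted p = 8.19e-06). A second tested probe of Serpinc1 gave -0.15, 0.75 and 0.90, all under the threshold of 1, so both calls and their sizes depend on the probe.

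Serpind1, which encodes heparin cofactor II, another thrombin inhibitor, read -6.05, -5.82, -6.53 and -7.22 in mESC, -2.11, -1.56, -1.78 and -1.90 at day 9, and 1.34, 1.15, 1.46 and 1.44 at day 14. The groups did not overlap, and mESC was below background. It was at least 11.5-fold higher at day 9 (adjusted p = 9.52e-09) and at least 105-fold higher at day 14 (adjusted p = 7.31e-11) than in mESC, and rose by 3.19 ± 0.25 on the log2 scale between the days (adjusted p = 1.03e-06).

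Of clade E, Serpine2, which encodes protease nexin, an inhibitor of thrombin and urokinase at the cell surface, read -2.92, -2.94, -3.01 and -2.97 in mESC, -0.15, -0.08, -0.01 and -0.19 at day 9, and 1.15, 1.23, 1.03 and 1.14 at day 14. The groups lay far apart for the spread within them, and Serpine2 rose by 2.85 ± 0.05 at day 9 and by 4.09 ± 0.05 at day 14 against mESC and by 1.25 ± 0.05 between the days on the log2 scale (adjusted p = 1.22e-12, 8.26e-14 and 8.52e-09). Serpine3 read -4.64, -5.11, -6.49 and -4.76 in mESC, -4.05, -5.22, -5.10 and -4.26 at day 9, and -4.13, -3.92, -4.18 and -3.90 at day 14. Only the day 14 and mESC arrays did not overlap, at a log2 fold change of 1.22 ± 0.39 (adjusted p = 0.0123). The call was lost without mESC replicate 3 (0.81) and also under quantile normalization (0.98), median scaling (0.90) and normexp (0.50), and the log2 fold change ran between 0.50 and 1.42 over 22 alternatives for Serpine3.

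Of clade F, Serpinf1 encodes PEDF, an anti-angiogenic factor that inhibits no protease, and Serpinf2 encodes antiplasmin, the chief plasmin inhibitor of blood. Serpinf1 read 1.77, 1.95, 1.85 and 1.96 in mESC, 4.27, 3.65, 3.79 and 4.19 at day 9, and 4.54, 4.62, 4.55 and 4.57 at day 14. Serpinf2 read -5.59, -5.20, -5.33 and -5.45 in mESC, above background on 1 array, -0.01, 0.99, 0.59 and 0.22 at day 9, and 1.26, 1.23, 1.44 and 1.47 at day 14. In both genes the groups did not overlap and most of the change was present by day 9. Serpinf1 rose by 2.09 ± 0.12 and 2.69 ± 0.12 at day 9 and day 14 against mESC (adjusted p = 1.56e-08 and 1.33e-09), and Serpinf2 by 5.84 ± 0.18 and 6.74 ± 0.18 (adjusted p = 6.65e-11 and 1.61e-11), all on the log2 scale. Between the days the log2 changes were 0.60 ± 0.12 and 0.90 ± 0.18 (adjusted p = 0.00134 and 0.00128), under the threshold. With only 1 mESC array above background, the size of the Serpinf2 rise is uncertain. Over 22 alternatives it ran from 2.98 to 5.995 at day 9 and from 3.73 to 6.81 at day 14 against mESC.

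Serping1, which encodes the C1 inhibitor of complement and contact activation, read -0.73, -0.79, -0.80 and -0.74 in mESC, 0.27, -0.30, -0.22 and 0.11 at day 9, and 1.41, 1.43, 1.36 and 1.21 at day 14. No groups overlapped. The log2 fold change was 0.73 ± 0.11 at day 9 against mESC (adjusted p = 8.33e-05), under the threshold, 2.11 ± 0.11 at day 14 against mESC (adjusted p = 5.19e-09) and 1.39 ± 0.11 between the days (adjusted p = 1.20e-06).

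Serpinh1, known as Hsp47, is the collagen chaperone of the endoplasmic reticulum. It read 3.76, 3.94, 3.89 and 3.89 in mESC, 6.69, 6.53, 6.66 and 6.75 at day 9, and 6.66, 6.56, 6.53 and 6.51 at day 14. The arrays of the 2 days overlapped and all 8 lay above mESC. The log2 fold change was 2.79 ± 0.06 at day 9 and 2.70 ± 0.06 at day 14 against mESC (adjusted p = 2.75e-12 and 3.06e-12), and -0.09 ± 0.06 between the days (adjusted p = 0.19). Serpini1, which encodes neuroserpin, an inhibitor of tissue plasminogen activator in the nervous system, differed by -0.83 ± 0.14 at day 9 and -0.07 ± 0.14 at day 14 against mESC (adjusted p = 0.000192 and 0.657), and by 0.76 ± 0.14 between the days (adjusted p = 0.000696), all under the threshold.

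Most of the 8 fibroblast markers rose against mESC, as did Serpinh1, Serpine2 and Serpinf1. Of these markers, 7 rose and 1 fell in each comparison with mESC, and 3 rose and 1 fell between the days. Their summed level was 2.49 to 2.62 in mESC, 236 to 417 at day 9 and 535 to 591 at day 14, with Col3a1, Dcn, Lum and Postn below background in mESC. All 6 cardiomyocyte markers and 5 of 6 parietal endoderm markers were also called higher at both days against mESC, with 1 parietal endoderm marker lower at day 9. The part of any of these cell types in the changes was not tested. A list of 13 genes of procollagen folding and its control, including the transcription factor Creb3l1, was set beside Serpinh1. Of these genes, 4 rose and 0 fell at day 9 and 7 rose and 0 fell at day 14 against mESC, and 1 rose between the days. At an unadjusted p under 0.05 by limma, 1 was lower at day 9 and 0 at day 14 against mESC. In the 3 comparisons, 41%, 46.8% and 13.8% of all genes tested were called in either direction, and 20.1%, 22.8% and 10.2% were called higher. The prolyl isomerase Fkbp10 rose by 3.13 ± 0.10 and 3.64 ± 0.10 on the log2 scale at day 9 and day 14 (adjusted p = 9.81e-11 and 2.20e-11), its relative Fkbp14 by 2.42 ± 0.13 and 2.91 ± 0.13 (adjusted p = 7.94e-09 and 1.26e-09), the transcription factor Creb3l1 by 2.77 ± 0.16 and 2.65 ± 0.16 (adjusted p = 1.18e-08 and 1.48e-08) and the prolyl hydroxylase subunit P4ha2 by 1.68 ± 0.13 and 2.50 ± 0.13 (adjusted p = 2.12e-07 and 4.78e-09).

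**Figure D5:**
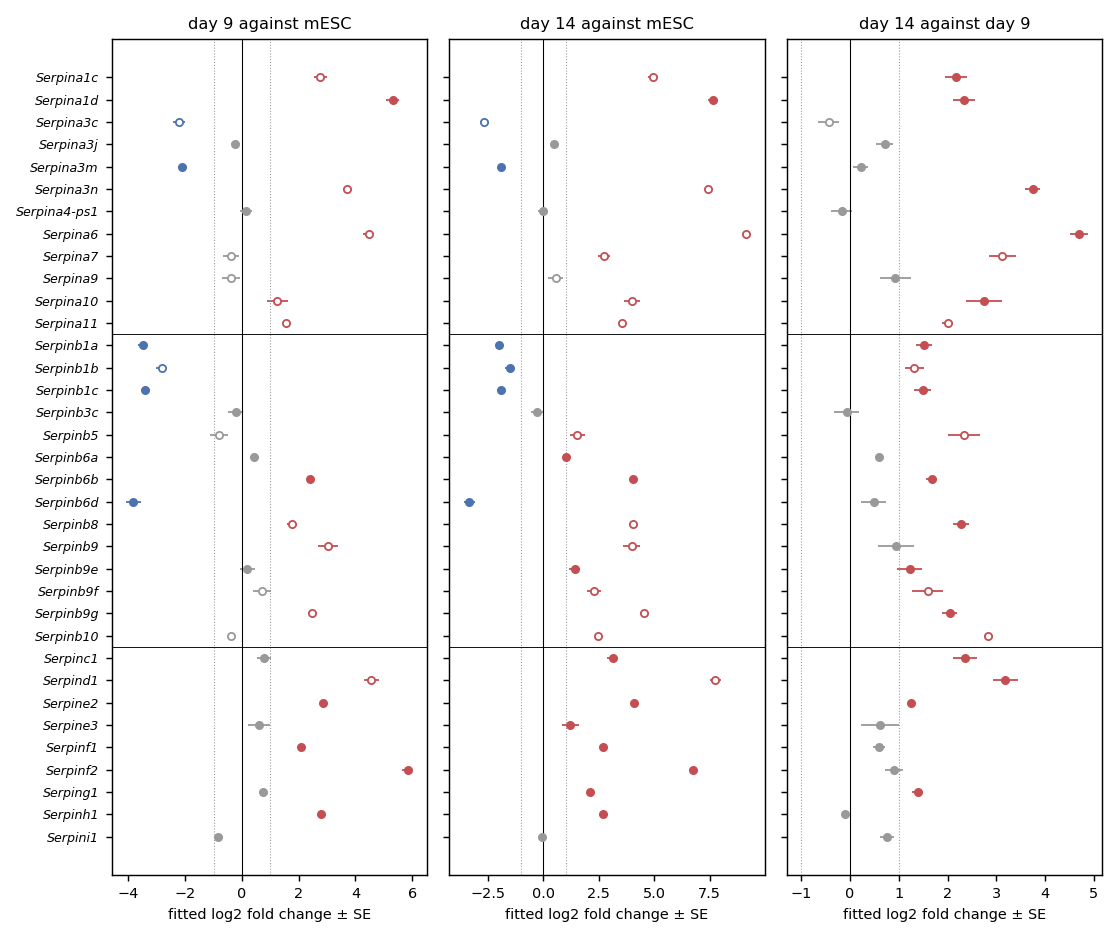
Fitted log2 fold change ± SE of the tested serpins reported here in the 3 comparisons, red where called higher, blue where called lower and grey where not called, with dotted lines at the threshold of 1 in either direction. Open points rest on a group that was below background throughout, so their size is not measured. Every point called at day 14 against day 9 lies above 0.

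Of 28 listed target proteases of serpins, 27 were on the array and 22 were tested. Of the tested, 7 rose and 8 fell at day 9 against mESC, 14 rose and 4 fell at day 14 against mESC, and 11 rose and 1 fell between the days, where 41%, 46.8% and 13.8% of all genes were called in either direction. F10, clotting factor X and the target of antithrombin and Serpina10, was at least 34-fold higher at day 9 and at least 79.7-fold higher at day 14 than in mESC (adjusted p = 4.39e-13 and 1.23e-13). Plau, urokinase and a target of Serpine2, was at least 1.74-fold and at least 33.9-fold higher at these days (adjusted p = 3.98e-09 and 1.73e-12). The cysteine cathepsins Ctsk and Ctss rose by 4.88 ± 0.17 and 7.90 ± 0.26 on the log2 scale at day 14 against day 9 (adjusted p = 1.56e-09 and 1.07e-09).

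Of 11 receptors and cofactors, 5 rose at day 9 and 8 at day 14 against mESC, 1 rose between the days and 0 fell in any of the 3, also at an unadjusted p under 0.05 by limma. The shares of all genes called in either direction were 41%, 46.8% and 13.8%, with 20.1%, 22.8% and 10.2% higher. Vtn, vitronectin, an adhesive protein of plasma and matrix, was at least 79.7-fold and at least 107-fold higher at day 9 and day 14 than in mESC (adjusted p = 2.73e-10 and 1.37e-10). Thbd, thrombomodulin, was at least 23.8-fold and at least 50.8-fold higher (adjusted p = 1.48e-10 and 2.30e-11). Hs3st1, the sulfotransferase that makes the antithrombin site of heparan sulfate, rose by 4.85 ± 0.29 and 5.30 ± 0.29 on the log2 scale (adjusted p = 1.62e-08 and 5.92e-09), and Anxa2, a plasminogen receptor, by 3.01 ± 0.17 and 3.27 ± 0.17 (adjusted p = 8.63e-09 and 3.41e-09).

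Protease inhibitors of other families, 25 of them tested, counted 9 higher and 5 lower at day 9 against mESC, 17 higher and 4 lower at day 14 against mESC, and 8 higher and 1 lower between the days. Beside them, 20.1%, 22.8% and 10.2% of all genes were called higher and 21%, 24% and 3.6% lower. Ambp, the precursor of bikunin, rose by 7.59 ± 0.24 and 9.45 ± 0.24 on the log2 scale at day 9 and day 14 (adjusted p = 6.89e-11 and 9.08e-12), and Itih2, which binds bikunin in plasma, was at least 14.4-fold and at least 28.2-fold higher (adjusted p = 4.35e-09 and 7.54e-10). Spink1, a Kazal inhibitor of trypsin, rose by 8.35 ± 0.21 at day 9 and by 5.61 ± 0.21 at day 14 against mESC and fell by 2.74 ± 0.21 between the days on the log2 scale (adjusted p = 9.37e-12, 1.98e-10 and 6.64e-07). Pzp, a macroglobulin, was below background at day 9, at least 7.73-fold lower than in mESC (adjusted p = 5.00e-12), and rose by 1.41 ± 0.11 on the log2 scale at day 14 against mESC (adjusted p = 2.01e-07).

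The calls on dim genes depend on how background was treated. With normexp background correction and an offset of 50, 7 serpins were called higher and 4 lower at day 9 against mESC, 15 and 2 at day 14 against mESC, and 10 and 0 between the days. Of clades C to I, 1 call was lost, that of Serpine3. The calls lost in the other clades were those of Serpina10, Serpina11, Serpina7, Serpina3c, Serpinb1b, Serpinb8, Serpinb9e, Serpinb9f, Serpinb10 and Serpinb5 in each comparison in which they were made, the day 9 calls of Serpina6, Serpina1c, Serpina3n, Serpinb9 and Serpinb9g, the day 14 calls of Serpina3m, Serpinb1c and Serpinb6a against mESC, and the calls of Serpinb1c and Serpinb9g between the days.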

How the data were processed

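Per the file headers and the submitters' processing notes, each array was extracted with Agilent Feature Extraction 12. The deposited processed signal is an intensity, the brightness of a spot on a linear scale after background subtraction and spatial detrending, per the file headers, with no scaling across arrays. Uncorrected intensities were deposited too (median signal, local background), and the flags for spots above background, outliers and saturation are 0 or 1. The series value table held the same intensities as deposited, with 0 differences.

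Of 45018 spots per array, 43379 were not controls and carried 41174 probes. Outlier spots were left out, no spot was saturated, spots of 1 probe were averaged on the log2 scale, and the 75th percentile of each array was subtracted. Probes were named through RefSeq accessions (28223 named, 12951 not). Where a gene had several tested probes, the brightest on average was taken. Group means of all 12 arrays were fitted with limma 3.58.1 in R 4.3.3. Promoters were searched and aligned with Python 3.11.15 and Biopython 1.88. The fit was tested on simulated data. The number of arrays limits the precision.

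The members, gene lists, naming rule and alternatives were chosen with earlier results of these data known. Values per array are given for the called members of clades C to I, for the 8 called members with the largest change in clade A and the 8 in clade B, and for up to 4 genes of each other list. The value behind each such ranking is the fitted change, also where only a bound is printed. Alternatives were normexp background correction, other scalings, the series table, other filters, probes averaged, only the 8 arrays compared, another variance model, outlier spots kept, the replicate number as a block, and each array left out. The normexp correction used the median signal, as the mean signal was not among the columns used here. No protein sequences were used here. The values of 1 tested member of clades C to I are not reported here, although it is included in the counts and medians.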

Additional observations from a re-analysis of the deposited data

Results flagged for a closer look

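In 9 of 108 gene and group combinations, 1 array stood apart from the other 3 by Dixon's criterion at the 95% level, where chance gives about 5.4. They were Serpinb6a in mESC replicate 4 (level 1.46) and in day 14 replicate 4 (2.27), Serpinb6d in day 9 replicate 4 (-2.47), Serpinb3c in day 14 replicate 3 (-4.27), Serpina3c in mESC replicate 1 (-5.29), Serpina4-ps1 in day 9 replicate 1 (-5.15), Serpina9 in day 9 replicate 1 (-7.24), Serpinb8 in mESC replicate 2 (-6.78) and Serpinb9f in mESC replicate 4 (-6.51). For Serpinb6d the other day 9 arrays read -3.74, -3.70 and -3.64, and the fall at day 9 was called without each array in turn. For Serpinb3c the other day 14 arrays read -2.98, -3.01 and -3.05.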

How the results depend on the processing

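Counts of serpins called higher and lower were 15 and 6 at day 9 against mESC, 25 and 6 at day 14 against mESC, and 21 and 0 at day 14 against day 9. With normexp background correction they were 7 and 4, 15 and 2, and 10 and 0, and with only genes above background on all 12 arrays 5 and 4, 9 and 4, and 7 and 0, where fewer genes were tested. Genes called on the other lists numbered 38, 55 and 24, against 23, 41 and 18 under normexp and 21, 33 and 9 above background on all arrays. Over all genes, normexp called 4753, 5849 and 1233. Leaving out 1 array at a time gave 14 to 15, 24 to 25 and 21 to 23 higher calls, 6, 6 and 0 lower calls, and 38 to 40, 53 to 55 and 23 to 27 calls on the other lists.

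Under normexp the clade A median log2 difference, day 9 against mESC, was -0.0865, and medians were 0.88 (clades C to I) at day 9 against mESC, 0.74, 0.54 and 2.15 for clade A, clade B and clades C to I at day 14 against mESC, and 0.82, 0.70 and 0.74 at day 14 against day 9. With no filter they were -0.26, -0.23 and 0.78 at day 9, 0.12 (clade A) and 0.19 (clade B) at day 14, and 0.71 and 0.95 between the days. Above background on all 12 arrays they were 1.60, -1.82 and 0.78 at day 9, 2.88 and -1.10 (clades A and B) at day 14, and 1.28 and 1.04 between the days. For clades C to I, quantile normalization gave 1.5, 3.03 and 0.95, scaling by the median 1.30, 2.37 and 0.70, and the mean of probes 2.41 at day 14. Scaling by the median gave 2.82 and 1.15 for clades A and B at day 14, where it moved the median of all genes to -0.51, and to -0.29 at day 9 and -0.28 between the days. Of all called genes, 36.4% were higher at day 14 against mESC under that scaling, against 48.7%, and 58.9% at day 14 against day 9, against 73.9%. Leaving out 1 array moved the medians within 0.58 to 0.82, -0.11 to 0.08 and 1.43 to 1.51 at day 9, 3.05 to 3.21, 1.36 to 1.54 and 2.66 to 2.72 at day 14, and 2.05 to 2.18, 1.35 to 1.63 and 0.85 to 1.00 between the days.

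Of 73 calls on single serpins, normexp ended 33 and reversed 2, Serpina10 at day 9 (-0.029) and Serpina3c at day 14 (0.13) against mESC. The cause was not tested. Median scaling ended 2 calls and quantile normalization 1, and the series table, no filter, the mean of probes, the 8 arrays compared, the other variance model and kept outlier spots ended 0. Dim signal over background limits the sizes of 31 of these calls, which rest on a group below background. The replicate block gave the same counts of serpin calls (15 and 6, 25 and 6, 21 and 0), medians of 0.69, -0.02 and 1.43, 3.14, 1.47 and 2.69, and 2.09, 1.5 and 0.89, and called 8565, 9774 and 2875 genes in all, against 8566, 9772 and 2879. Same-numbered arrays deviated together only weakly (correlations from -0.07 to 0.18). Of 4 arrays, 1 (day 9 and mESC), 1 (day 14 and mESC) and 3 (day 14 and day 9) correlated best with their own number. So few arrays neither show nor exclude a pairing by number. Slide or scan as a block was not run, since no slide holds more than 1 group.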

Other observations

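Marker lists whose sums are not given above had the following summed levels, in multiples of the array's 75th percentile. The 8 epithelial markers lay between 35.2 and 36.4 in mESC, between 168 and 184 at day 9 and between 87.8 and 95.2 at day 14. Of these, 3 rose and 1 fell at day 9 and 5 rose and 1 fell at day 14 against mESC. The 6 parietal endoderm markers summed to 43.9 to 47.1, 65.8 to 93.1 and 117 to 134 in the same order, and 5 rose and 1 fell at day 9 and 5 rose and 0 fell at day 14 against mESC (1 lower at an unadjusted p under 0.05 by limma). The 6 visceral endoderm markers summed to 95.8 to 103, 52.7 to 66.6 and 44.2 to 51.3, with 3 higher and 1 lower at day 9 and 3 higher and 2 lower at day 14. The 7 endothelial markers summed to 11.3 to 12.0, 12.7 to 16.9 and 8.6 to 9.6. Of these, 5 rose and 1 fell at day 9 and 4 rose and 1 fell at day 14 against mESC. Between the days 0 rose and 5 fell. Cdh5, Tie1 and Emcn were below background in mESC. The 5 tested neuronal markers summed to 2.47 to 2.95, 1.51 to 2.63 and 2.51 to 3.69. Of these, Dcx, Syt1 and Map2 rose from below background and Stmn2 fell at both days against mESC (3 higher and 1 lower), and 3 rose and 0 fell at day 14 against day 9, also 0 lower at an unadjusted p under 0.05 by limma.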
